A study of Homo sapiens with 12 samples.

Results

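The 9 genes described here, CDKN1A, BBC3, TP53INP1, TP53I3, FDXR, SESN1, RRM2B, ZMAT3 and MDM2, are established targets of the transcription factor p53 and were taken by name from the 58735 genes of the expression table. They were measured in NCM460 cells, a human colonic epithelial cell line, in 12 RNA-seq libraries that fell into 4 groups of 3. The medium group received no stimulus, the TNF-α group received the inflammatory cytokine, the 5-OH-TMT group received TNF-α together with 5-OH-TMT, and the HTRA2 knockdown group received TNF-α and siRNA against HTRA2. The compound, labelled Bufotenidine, is the trimethylated form of serotonin, and HTRA2 is a serine protease of the mitochondrial intermembrane space. The labels give no dose or exposure time, they do not say whether the knockdown libraries came from 1 siRNA or from several, and they name no control siRNA for the TNF-α group. No label says that the libraries of a group came from separate cultures, so the p-values measure the spread between these libraries, which may be technical.

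In resting cells p53 is made and destroyed continuously, because MDM2, a ubiquitin ligase that p53 itself induces, marks it for the proteasome, while MDM4 blocks its activation domain. DNA damage and other stresses release p53 from this loop through kinases such as ATM, ATR, CHEK1 and CHEK2, and p53 then binds pairs of short half-sites near its targets. The targets serve different ends, among them cell cycle arrest (CDKN1A, which encodes p21), apoptosis (BBC3, which encodes PUMA), redox and mitochondrial metabolism (TP53I3, FDXR, SESN1), DNA precursor supply and RNA stability (RRM2B, ZMAT3), autophagy (TP53INP1) and feedback (MDM2). Several of them are also induced by other factors, including NF-κB, STAT and SP1 family proteins, so a rise in 1 target is not by itself a measure of p53.

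Promoter sequence was examined first, since the members moved differently. RefSeq promoter windows (GRCh38.p14, 250 bases before to 50 after a start) were at hand for 7 of the 9 members, 14 windows in all, and TP53INP1 and RRM2B had none. A p53 half-site was taken as the consensus of 10 bases with its central C and G kept and at most 1 other mismatch, which reads alike on both strands, and a full site as a pair of half-sites at most 13 bases apart. Among all 35116 windows of 27305 genes, 45.1% held such a half-site, 6.63% held one without mismatch, and 1.84% held a full site. Only MDM2 held a full site among the members, in the windows of its internal start, which lies in the first intron of the longer transcripts and is known as the p53-responsive promoter of this gene. CDKN1A and BBC3 alone had an adjusted p under 0.05 (limma) both for TNF-α against medium and for HTRA2 knockdown against TNF-α. The stretches below are shown for both, for MDM2 and for SESN1, whose internal window held a half-site without mismatch. Each runs 5′ to 3′ on the gene's own strand from the far end of its window and stops before the first base that GENCODE 29 gives as untranslated exon, or at the RefSeq start, and capitals mark half-sites.
MDM2, internal start, chr12:68808767-68809001, plus strand: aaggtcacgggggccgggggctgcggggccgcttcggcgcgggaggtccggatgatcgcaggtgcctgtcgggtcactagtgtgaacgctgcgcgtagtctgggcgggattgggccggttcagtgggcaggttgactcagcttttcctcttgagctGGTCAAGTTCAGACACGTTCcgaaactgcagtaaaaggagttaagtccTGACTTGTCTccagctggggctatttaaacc
CDKN1A, chr6:36678464-36678657, plus strand: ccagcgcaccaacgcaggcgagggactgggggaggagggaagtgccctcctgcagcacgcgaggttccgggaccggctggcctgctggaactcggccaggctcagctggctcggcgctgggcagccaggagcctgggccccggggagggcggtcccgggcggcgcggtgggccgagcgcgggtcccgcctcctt
BBC3, chr19:47232767-47232917, minus strand: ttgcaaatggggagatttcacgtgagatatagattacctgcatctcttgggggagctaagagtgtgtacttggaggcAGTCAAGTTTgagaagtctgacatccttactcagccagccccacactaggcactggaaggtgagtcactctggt
SESN1, internal start, chr6:109008989-109009238, minus strand: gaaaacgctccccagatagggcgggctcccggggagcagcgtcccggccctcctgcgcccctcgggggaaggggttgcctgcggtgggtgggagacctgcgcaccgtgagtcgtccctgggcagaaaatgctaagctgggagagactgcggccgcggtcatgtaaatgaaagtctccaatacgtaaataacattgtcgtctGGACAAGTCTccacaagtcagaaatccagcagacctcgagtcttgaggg
The 20 capitals that run together in MDM2 are the 1 full site that this rule found there, at chr12:68808923-68808942. It lies from 94 to 75 bases before the start, with no spacer and 2 mismatches in 20 bases. The remaining capitals mark a further half-site, which the rule paired with no other. A pair of half-sites with no spacer occurred in 55 of the 35116 windows (0.157%). The window of the upstream FDXR start, at chr17:74872945-74873244, also held a half-site without mismatch and is not shown. The CDKN1A window held no half-site, and the known p53 sites of this gene lie further upstream than these windows reach. The BBC3 stretch held 1 half-site. It also held 1 AP-1 core (TGACTCA or TGAGTCA), as did the MDM2 stretch, and 4.95% of all windows held this motif. GC boxes (GGGCGG or CCGCCC), which 45% of all windows held, numbered 4 in the whole CDKN1A window and 0 in that of BBC3. No member's window held TATAAA or TTTATA, which 11.5% of all windows held. Gene-level values cannot separate the MDM2 transcripts of its 2 starts, and a match in these letters is not evidence of binding. Sequence outside the windows was not searched for any member. Within the windows the rule passed over half-sites that lack the central C or G or have more than 1 other mismatch. A window without a full site therefore does not mean that the gene has none.

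Library and line checks preceded the comparisons. Reads on genes ranged from 31008429 to 37624399 per library, and mitochondrial transcripts took 2.95% of them in the second knockdown library and 3.69% to 4.68% in the others. HTRA2 itself read 15.4, 14.0 and 14.2 FPKM (fragments per kilobase of transcript, scaled to library depth) in the TNF-α libraries and 7.44, 7.18 and 7.22 FPKM in the knockdown libraries, a log2 fold change of -0.98 ± 0.09 (SE, adjusted p = 2.8e-05). HTRA2 shares 16.1% of its exon bases with AUP1 and 20.8% with LOXL3 on the opposite strand, so its residual level is uncertain where strand was not used in counting. The summed level of 5 epithelial markers (EPCAM, CDH1, KRT8, KRT18, KRT19) lay between 2118 and 2689 FPKM in every library. By contrast, the intestinal markers CDX2, VIL1, CDH17 and LGALS4 summed to at most 0.189 FPKM, and CDX2 was at 0 in all 12 libraries, so the colonic label was not borne out by these genes. Markers of leukocytes (PTPRC, CD3E, CD14) summed to at most 0.727 FPKM and those of endothelium (PECAM1, VWF) to at most 0.278 FPKM. The mesenchymal markers VIM, COL1A1, COL1A2 and PDGFRB summed to 4.18 to 6.23 FPKM, with COL1A2 and PDGFRB near 0. Within that list VIM averaged 4.59 FPKM with TNF-α and 1.37 FPKM with the knockdown, and COL1A1 1.17 and 2.89 FPKM, and their part in the results was not tested.

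By mean, CDKN1A and BBC3 were lowest in medium, higher with TNF-α, higher again with 5-OH-TMT and highest with the knockdown. The difference between 5-OH-TMT and TNF-α passed the test for neither gene. The 5-OH-TMT and knockdown groups are separate additions to TNF-α, not successive steps. The other 7 members did not follow this order. CDKN1A rose 1.44-fold with TNF-α and a further 1.90-fold with HTRA2 knockdown under TNF-α, and BBC3 rose 2.19-fold and a further 2.29-fold. TP53INP1, a gene of low level, rose 2.90-fold with the knockdown. MDM2, TP53I3, FDXR, SESN1, RRM2B and ZMAT3 passed the test in none of the 3 main comparisons. A gene counted as called at an adjusted p under 0.05 over 18079 genes with a mean of at least 0.1 FPKM, and all 9 members entered that test.

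**Figure D1:**
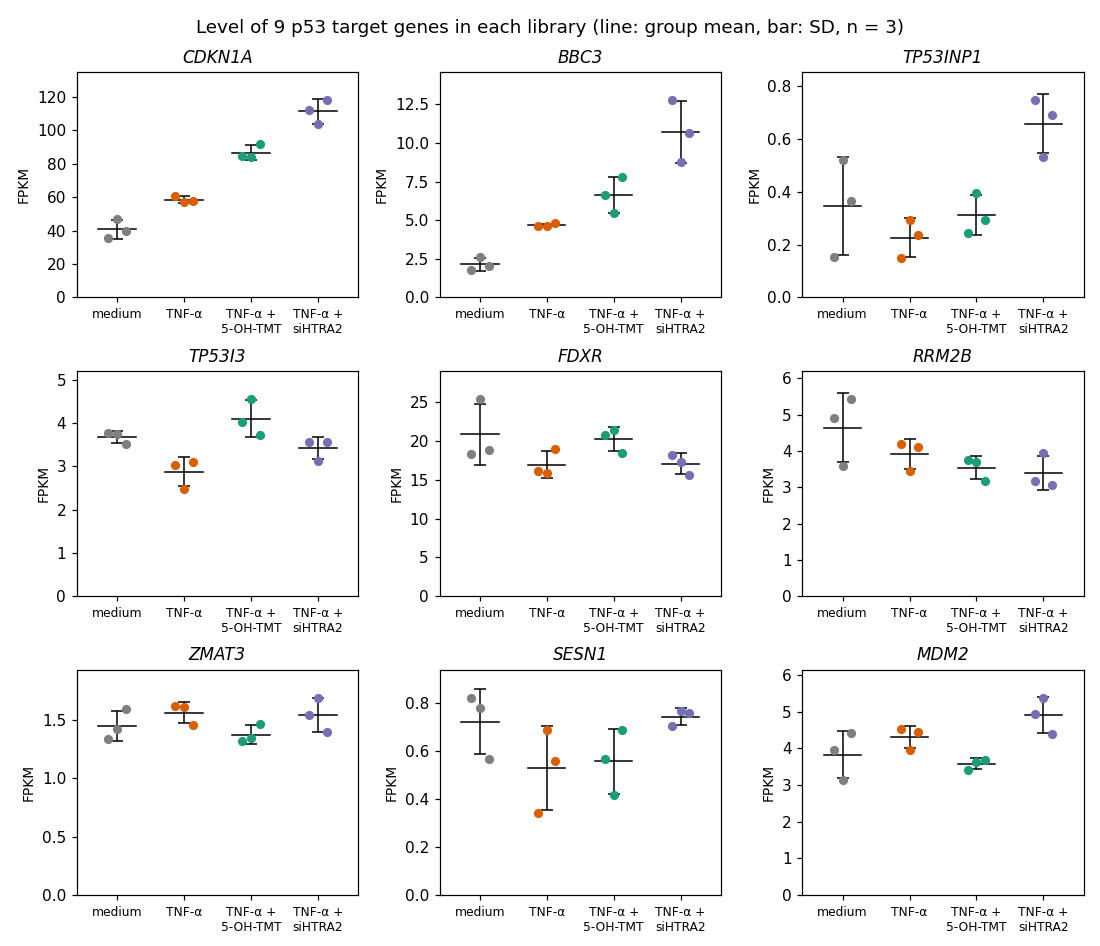
FPKM (vertical axis, from 0) of the 9 members in the 12 libraries, with 1 point per library, a line at each group's mean and a bar of 1 SD (n = 3). CDKN1A and BBC3 step upwards from medium to HTRA2 knockdown without overlap between neighbouring groups, from 35.4 to 118 FPKM and from 1.80 to 12.8 FPKM. Of all tested genes, 11.1%, 16.3% and 18.2% were higher without overlap in the same 3 comparisons of neighbours, each taken singly. That of 5-OH-TMT with TNF-α was not called for either gene.

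All 9 are protein-coding genes, which the files place on GRCh38, with CDKN1A (ENSG00000124762) at chr6:36676460-36687339, BBC3 (ENSG00000105327) at chr19:47220822-47232766, TP53INP1 (ENSG00000164938) at chr8:94925972-94949411, TP53I3 (ENSG00000115129) at chr2:24077433-24085861 and FDXR (ENSG00000161513) at chr17:74862497-74873031. The others are SESN1 (ENSG00000080546) at chr6:108986437-109094819, RRM2B (ENSG00000048392) at chr8:102204502-102239118, ZMAT3 (ENSG00000172667) at chr3:179017223-179072279 and MDM2 (ENSG00000135679) at chr12:68808176-68850686.

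With TNF-α against medium, the question was which of the targets respond to the cytokine alone. CDKN1A encodes p21, the inhibitor of cyclin-dependent kinases that holds cells in G1. It read 35.4, 46.8 and 39.8 FPKM in the medium libraries and 60.8, 57.3 and 57.6 FPKM in the TNF-α libraries. All 3 TNF-α values lay above all 3 medium values, and the log2 fold change was 0.53 ± 0.09 (SE, adjusted p = 0.005). That call was lost when only these 2 groups were fitted (adjusted p = 0.0666). BBC3 encodes PUMA, a BH3-only protein that neutralises the anti-apoptotic BCL2 proteins. Its values were 1.80, 2.60 and 2.02 FPKM in medium and 4.63, 4.65 and 4.79 FPKM with TNF-α, again with no overlap. The log2 fold change was 1.11 ± 0.16 (SE, adjusted p = 0.00157), and the call held under each of the 24 alternative settings.

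TP53I3 encodes a quinone oxidoreductase named for its induction by p53. It read 3.77, 3.73 and 3.52 FPKM in medium and 3.03, 2.48 and 3.10 FPKM with TNF-α. The TNF-α libraries were all lower, but the log2 fold change of -0.35 ± 0.11 (SE) did not pass the test (adjusted p = 0.107). FDXR, the mitochondrial ferredoxin reductase, had a log2 fold change of -0.29 ± 0.12 (SE, adjusted p = 0.29), with overlapping groups. For MDM2 the values were 3.95, 3.13 and 4.42 FPKM in medium and 4.52, 3.96 and 4.44 FPKM with TNF-α. The groups overlapped, and the 95% interval of the log2 fold change ran from -0.09 to 0.44 (adjusted p = 0.581). The log2 fold changes of SESN1, a stress-induced inhibitor of mTORC1 signalling, RRM2B, the small ribonucleotide reductase subunit used outside S phase, ZMAT3, an RNA-binding zinc finger protein, and TP53INP1, an autophagy and apoptosis adaptor, lay between -0.41 and 0.10 with adjusted p of 0.477 to 0.758.

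In all, 2 of 9 members were called higher with TNF-α and 0 lower, where 3.22% of all tested genes were called higher and 0.885% lower. The groups did not overlap for 2 members in the upward and 1 in the downward direction, against 11.1% and 8.74% of all tested genes. Only BBC3 counted as a DEG under the rule of at least 2-fold together with p at most 0.05 before adjustment, where 2.73% of all genes did. The median log2 fold change of the 9 members was -0.22, beside 0.00 over all tested genes, so CDKN1A and BBC3 stood apart from the middle of their own list.

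For 5-OH-TMT with TNF-α against TNF-α, the question was whether the compound altered the targets in stimulated cells. CDKN1A read 84.4, 84.0 and 91.7 FPKM with 5-OH-TMT, all above the 60.8, 57.3 and 57.6 FPKM of TNF-α alone. This 1.48-fold difference, a log2 fold change of 0.56 ± 0.09 (SE), fell just short of the test (adjusted p = 0.0531). It passed under 8 of the 24 alternatives, among them voom on the recovered reads (adjusted p = 0.00516), which called 336 genes in this comparison. It also passed without the first medium library (0.0427), the second medium library (0.0201) or the second knockdown library (0.0298), none of which is part of the difference itself but all of which enter the shared estimate of the spread. BBC3 read 6.61, 5.49 and 7.80 FPKM, above all 3 TNF-α values, with a log2 fold change of 0.48 ± 0.16 (SE, adjusted p = 0.149). TP53I3 read 4.02, 4.55 and 3.73 FPKM, also above every TNF-α value, with a log2 fold change of 0.50 ± 0.11 (SE, adjusted p = 0.0853). TP53I3 passed only with genes under a mean of 1 FPKM left out (adjusted p = 0.0491) and without the second knockdown library (0.0395).

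MDM2 was the 1 member whose 5-OH-TMT values all lay below TNF-α, at 3.42, 3.64 and 3.69 FPKM, with a log2 fold change of -0.26 ± 0.12 (SE, adjusted p = 0.263). The log2 fold changes of the other 5 members lay between -0.17 (ZMAT3) and 0.35 (TP53INP1), with overlapping groups. Thus limma called 0 of 9 members at an adjusted p under 0.05, where it called 0.0332% of all tested genes higher and 0.00553% lower. That share depended on the fit. Over all genes 7 were called in the main fit, and 911 with only the 2 groups fitted, CDKN1A among them. The number was 551 without the second knockdown library and 127 with genes under a mean of 1 FPKM left out, but 1 without the variance trend. At an unadjusted p under 0.05 there were 3 members, CDKN1A, TP53I3 and BBC3, where 20.1% of all tested genes passed that level, and voom called CDKN1A alone. Non-overlap was found for 3 members upwards and 1 downwards, against 16.3% and 15.5% of all genes. None of the members met the DEG rule, which 1.5% of all genes met.

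**Figure D2:**
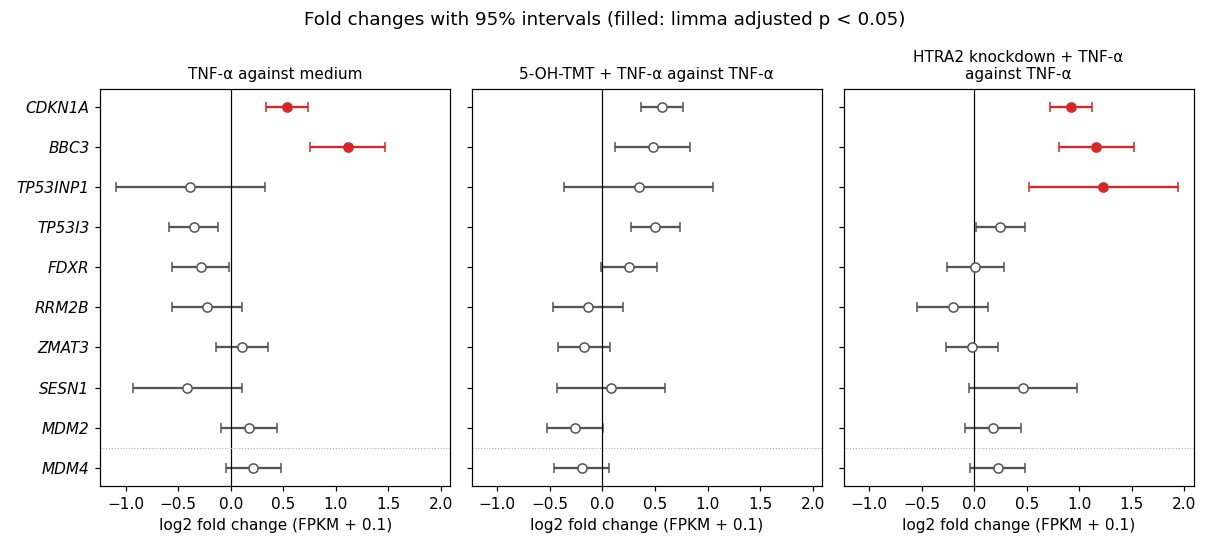
Log2 fold changes (horizontal axis, on the log2(FPKM + 0.1) scale) of the 9 members and MDM4 in the 3 main comparisons, with 95% intervals and filled points for an adjusted p under 0.05. CDKN1A and BBC3 are filled with TNF-α and with HTRA2 knockdown and TP53INP1 with the knockdown only, and no point is filled with 5-OH-TMT.

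HTRA2 knockdown with TNF-α was compared with TNF-α to ask how the targets differed in stimulated cells given HTRA2 siRNA. These libraries measure HTRA2 RNA and not its protein. With no control siRNA named for the TNF-α group, effects of siRNA transfection and of lower HTRA2 cannot be told apart. CDKN1A read 112, 104 and 118 FPKM in the knockdown libraries, above every library of the other groups. Its log2 fold change was 0.92 ± 0.09 (SE, adjusted p = 5.5e-05). BBC3 read 12.8, 8.75 and 10.7 FPKM, also above all other libraries, and its log2 fold change was 1.16 ± 0.16 (SE, adjusted p = 5.5e-04). Both calls held under all 24 alternatives. TP53INP1 was far lower and more variable. It read 0.149, 0.294 and 0.236 FPKM with TNF-α, from 31 to 52 reads, and 0.747, 0.532 and 0.691 FPKM with the knockdown, from 109 to 153 reads. The groups did not overlap, and the log2 fold change was 1.23 ± 0.32 (SE, adjusted p = 0.0214). The TP53INP1 call was lost with no filter on low genes (adjusted p = 0.0544) and without the first or the third TNF-α library (0.0785 and 0.0509) or the first or the third knockdown library (0.0805 and 0.0617). Its medium libraries spread from 0.153 to 0.522 FPKM, and the knockdown did not differ from medium past the test (log2 fold change 0.84 ± 0.32, SE, adjusted p = 0.0805).

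SESN1 read 0.704, 0.769 and 0.761 FPKM with the knockdown and 0.341, 0.689 and 0.560 FPKM with TNF-α. These values did not overlap, but the log2 fold change of 0.46 ± 0.24 (SE) was not called (adjusted p = 0.209). TP53I3 lay between 3.13 and 3.56 FPKM, above its TNF-α libraries, with a log2 fold change of 0.25 ± 0.11 (SE, adjusted p = 0.138). MDM2 read 4.95, 5.39 and 4.39 FPKM against 4.52, 3.96 and 4.44 FPKM, with a log2 fold change of 0.18 ± 0.12 (SE, adjusted p = 0.345). FDXR and ZMAT3 had log2 fold changes of 0.01 ± 0.12 and -0.02 ± 0.11 (SE), and the sign of both turned under some alternatives. RRM2B had the lowest value, -0.21 ± 0.15 (SE, adjusted p = 0.4).

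With the knockdown 3 of 9 members rose and 0 fell, where 9.35% of all tested genes were called higher and 8.08% lower. Non-overlap was found for 5 members upwards and 0 downwards, against 17.5% and 16.4% of all genes. BBC3 and TP53INP1 met the DEG rule, as 4.23% of all genes did, while CDKN1A at 1.90-fold stayed under it. The median log2 fold change of the members was 0.25, beside 0.00 over all tested genes. The 5-OH-TMT and knockdown comparisons share the 3 TNF-α libraries, and their values are therefore given side by side and not as separate evidence.

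Against medium, CDKN1A had a log2 fold change of 1.10 with 5-OH-TMT and TNF-α (adjusted p = 1.5e-05) and of 1.46 with the knockdown and TNF-α (adjusted p = 4.2e-07). For BBC3 the corresponding values were 1.59 (adjusted p = 7.7e-05) and 2.27 (adjusted p = 1.2e-06). These were the only 2 members called in either comparison, both higher, where 4.99% of all genes were called higher with 5-OH-TMT and 12.9% with the knockdown. The knockdown count was 4 with genes under a mean of 1 FPKM left out (MDM2 higher and RRM2B lower in addition), 5 with voom, and 4 without the second medium library. RRM2B averaged 4.64 ± 0.95 FPKM in medium and 3.39 ± 0.47 FPKM with the knockdown (SD, n = 3), and its medium libraries alone spread from 3.58 to 5.43 FPKM (log2 fold change -0.43 ± 0.15, SE, adjusted p = 0.0614).

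Set directly against 5-OH-TMT, the knockdown had higher CDKN1A, by a log2 value of 0.36 ± 0.09 (SE, adjusted p = 0.0227), higher BBC3, by 0.68 ± 0.16 (adjusted p = 0.0168), and higher MDM2, by 0.44 ± 0.12 (adjusted p = 0.0318). For all 3 genes the libraries did not overlap, and 7.85% of all genes were called higher. Non-overlap was found for 5 members upwards and 2 downwards (TP53I3 and FDXR), against 18.2% and 17.6% of all genes. The 3 calls were all lost without the first or the second 5-OH-TMT library or without the first knockdown library, where 0 members were called. The CDKN1A call was also lost without the third knockdown library, and that of MDM2 without the third 5-OH-TMT or the second knockdown library. Among the other settings, BBC3 was lost in the fit of only the groups compared, and CDKN1A and MDM2 without the variance trend. The MDM2 call was also lost with no filter on low values and with the replicate block. MDM2 was thus lowest with 5-OH-TMT and highest with the knockdown, and its neighbours in the order 5-OH-TMT (3.58 ± 0.15 FPKM), medium (3.83 ± 0.65), TNF-α (4.31 ± 0.31) and knockdown (4.91 ± 0.50, SD, n = 3) did not differ past the test.

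The order of the group means differed among the members. CDKN1A averaged 40.7 ± 5.73 FPKM (SD, n = 3) in medium, 58.6 ± 1.93 in the TNF-α group, 86.7 ± 4.33 in the 5-OH-TMT group and 111 ± 7.23 in the knockdown group, and of the neighbouring steps that from TNF-α to 5-OH-TMT was not called. For BBC3 the means in the same order were 2.14 ± 0.41, 4.69 ± 0.09, 6.63 ± 1.15 and 10.7 ± 2.02 FPKM, and again only the step from TNF-α to 5-OH-TMT was not called. TP53I3 was lowest with TNF-α (2.87 ± 0.34 FPKM) and highest with 5-OH-TMT (4.10 ± 0.42), with the knockdown (3.42 ± 0.25) and medium (3.68 ± 0.13) between. FDXR was likewise lowest with TNF-α (17.0 ± 1.73 FPKM) and the knockdown (17.1 ± 1.32) and higher with 5-OH-TMT (20.2 ± 1.58) and medium (20.9 ± 3.94). Neither gene had a called difference between any pair of groups. On the same FPKM scale, which is per length, CDKN1A was the highest member in each group, FDXR the second, and SESN1 and TP53INP1 stayed below 1 FPKM in all 12 libraries.

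As a description over the 12 libraries, CDKN1A and BBC3 had a Pearson r of 0.98 on the log2 scale, the highest of the 36 member pairs. The next was MDM2 with ZMAT3 at 0.67, then TP53I3 with FDXR at 0.63. The lowest was BBC3 with RRM2B at -0.79, the median of all pairs was 0.04, and 22 of 36 were above 0, so the 9 genes did not vary as 1 group. These correlations follow the 4 group means, and all pairs share the libraries. Among 11185 genes with a mean of at least 1 FPKM, the 5 most like CDKN1A were PKP1 (r = 0.99), PSMB8 (0.99), RNF19B (0.98), PSMB10 (0.98) and TINAGL1 (0.98). PSMB8 and PSMB10, subunits of the immunoproteasome, had means of 29.9 and 8.49 FPKM in medium and 68.3 and 28.4 FPKM with the knockdown. MDM2 was most like FAM160B1 (r = 0.97), NUFIP2 (0.97), YES1 (0.96), HIF1A (0.96) and ADAM9 (0.96), each lowest with 5-OH-TMT and highest with the knockdown in their means.

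The regulators of p53 were read from a list of 12 genes, all tested. With TNF-α 0 of the 12 were called by limma, 3 had an unadjusted p under 0.05, where 14.8% of all tested genes did, and voom called TP73 alone. With 5-OH-TMT 0 of the 12 were called by limma or by voom and 3 had an unadjusted p under 0.05, where 20.1% of all tested genes did. In 4 of the 12 all 5-OH-TMT libraries lay below all TNF-α libraries, as in 15.5% of all tested genes. These were USP7, the deubiquitinase of MDM2 and p53 (log2 fold change -0.30 ± 0.09, SE), CHEK1 (-0.33 ± 0.11), and the p53 ubiquitin ligases COP1 (-0.16 ± 0.06) and RCHY1 (-0.18 ± 0.16, adjusted p = 0.56). USP7 was called in the fit of only the 2 groups and in that without the second knockdown library. With the knockdown 2 were called, both lower, where 8.08% of all tested genes were. TP63, the p53 relative of basal epithelia, averaged 12.7 ± 1.90 FPKM with TNF-α and 9.87 ± 0.42 FPKM with the knockdown (SD, n = 3), giving a log2 fold change of -0.34 ± 0.10 (SE, adjusted p = 0.0318). CHEK1, the replication checkpoint kinase, went from 4.99 ± 0.27 to 3.78 ± 0.20 FPKM, a log2 fold change of -0.39 ± 0.11 (SE, adjusted p = 0.0242). The TP63 call was lost in 9 of the 24 alternatives (adjusted p up to 0.123), which were no filter on low values, the fit of only the 2 groups, no variance trend, the replicate block, and the fits without the first or second TNF-α library or any 1 knockdown library. The CHEK1 call was lost in 5 (adjusted p up to 0.0919), which were a fixed sum and the fits without the second or the third TNF-α or the first or the third knockdown library. MDM4 went from 2.12 ± 0.23 to 2.49 ± 0.33 FPKM (log2 fold change 0.22 ± 0.12, SE, adjusted p = 0.232). TP73, the other p53 relative, had a log2 fold change of -0.21 ± 0.17 with the knockdown and of -0.51 ± 0.17 with TNF-α (SE, adjusted p = 0.434 and 0.143). CDKN2A, ATM, ATR, CHEK2 and PPM1D, the phosphatase that dampens the pathway and a target itself, had log2 fold changes of -0.42 to 0.39 over the 3 main comparisons and were not called. Against medium the knockdown had 1 of the 12 called higher and 3 lower, where 12.9% and 11.4% of all tested genes were. MDM4 was the higher one, called in 21 of the 24 alternatives. The lower ones were TP63 (called in 24), TP73 (23) and CHEK1 (13). Against 5-OH-TMT the knockdown had only MDM4 called, higher and in 14 of the 24, where 7.85% of all tested genes were called higher. The median log2 fold change of the 12 was 0.03 with TNF-α, -0.14 with 5-OH-TMT and 0.02 with the knockdown.

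A wider list of 41 other p53 targets was then read, of which 37 passed the filter on low values. SPATA18, TIGAR, TNFRSF10C and TP53AIP1 did not. With TNF-α 6 of the 37 rose and 1 fell, where 3.22% and 0.885% of all tested genes did. The largest rises were in CSF1, the macrophage colony-stimulating factor (1.59 to 4.41 FPKM, log2 fold change 1.42), PLK3, a stress-response kinase (1.15), GADD45A, a growth arrest gene (1.03), and DRAM1, a lysosomal autophagy gene (0.96), with adjusted p of 6.4e-04 or less. DDB2, a damaged-DNA binding protein of nucleotide excision repair, fell from 18.3 to 13.3 FPKM, by a log2 value of -0.45 ± 0.09 (SE, adjusted p = 0.0142), a call lost in the fit of only the 2 groups and without the second medium library or the third TNF-α library (adjusted p up to 0.0695). With 5-OH-TMT 0 of the 37 were called by limma, voom called NINJ1 alone, and 16 had an unadjusted p under 0.05, where 20.1% of all tested genes did. With the knockdown 11 rose and 4 fell, where 9.35% and 8.08% of all tested genes did. TRIM22, an antiviral gene also induced by interferon, rose from 0.848 to 4.37 FPKM (log2 fold change 2.26 ± 0.17, SE, adjusted p = 1.3e-05). CSF1 rose by a log2 value of 1.31, NINJ1, a membrane protein of plasma membrane rupture, by 1.08, and BTG2, an antiproliferative gene, by 1.05, with adjusted p of 2.0e-04 or less.

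The 4 that fell with the knockdown were AEN, an apoptosis-enhancing nuclease (log2 fold change -0.64, adjusted p = 0.00374), TRIAP1 (-0.35, 0.0157), BAX, the pore-forming effector of mitochondrial apoptosis (-0.33, 0.0161), and CMBL (-0.29, 0.0293). The AEN call held under all alternatives. TRIAP1 was lost with a fixed sum and without the third TNF-α or the first knockdown library, BAX without the second TNF-α or the first knockdown library, and CMBL in the fit of only the 2 groups, without the variance trend, and without the first or second library of either group. The median log2 fold change of the 37 was 0.06 with TNF-α, 0.06 with 5-OH-TMT and 0.00 with the knockdown, beside 0.00 for all tested genes in each.

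**Figure D3:**
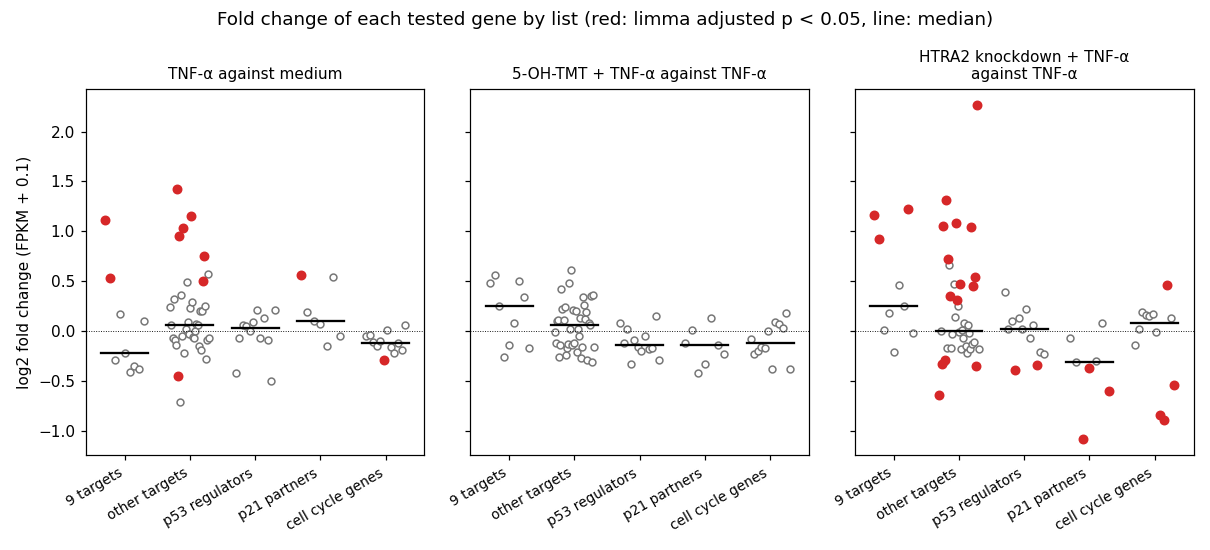
Log2 fold change (vertical axis, on the log2(FPKM + 0.1) scale) of each tested gene in the 9 targets, the 37 other targets, the 12 p53 regulators, the 7 p21 partners and the 12 cell cycle genes, with red points for an adjusted p under 0.05 and a line at each list's median. Red points lie on both sides of 0 with HTRA2 knockdown, where TRIM22 is the highest at 2.26, and none appears with 5-OH-TMT.

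The proteins that p21 binds were read from 7 genes. With TNF-α CCND1, which encodes cyclin D1, rose from 55.5 to 81.9 FPKM (log2 fold change 0.56 ± 0.08, SE, adjusted p = 0.00197), the 1 of the 7 called, where 3.22% of all tested genes rose. With 5-OH-TMT 0 of the 7 were called by limma or by voom, and 3 had an unadjusted p under 0.05, where 20.1% of all tested genes did. With the knockdown 3 fell and 0 rose, where 8.08% and 9.35% of all tested genes did. CCNE2, cyclin E2, fell from 1.09 to 0.465 FPKM (log2 fold change -1.08 ± 0.17, SE, adjusted p = 0.00127). PCNA, the replication clamp, fell from 76.5 to 50.5 FPKM (-0.60 ± 0.07; adjusted p = 1.9e-04). CDK2 fell from 22.8 to 17.6 FPKM (-0.37 ± 0.09; adjusted p = 0.0115), a call lost in the fit of only the 2 groups and without the second TNF-α or the first knockdown library. Against medium the knockdown had 2 of the 7 called higher and 4 lower, where 12.9% and 11.4% of all tested genes were. CCND1 and CDK6 were the higher ones, each called in all 24 alternatives. The lower ones were CCNE2, PCNA, CDK4 (called in 20 of the 24) and CDK2 (17). Against 5-OH-TMT the knockdown had 0 higher and 3 lower (CCNE2, PCNA and CDK4), where 7.85% and 7.43% of all tested genes were. Of 12 cell cycle genes that p53 is known to repress through p21 and the DREAM complex, 1 was called lower with TNF-α (CDC25C, log2 fold change -0.29, adjusted p = 0.0355, lost in 14 of the 24 alternatives), where 0.885% of all tested genes were. With 5-OH-TMT against TNF-α limma called 0 and 6 had an unadjusted p under 0.05, where 20.1% of all tested genes did. RRM2 was called lower there by voom, and RRM2 and CCNA2, cyclin A2, in the fit of only the 2 groups and in that without the second knockdown library. Against medium 5 of the 12 were called lower with 5-OH-TMT and TNF-α together, where 1.56% of all tested genes were. These were CCNA2, CCNB1, CCNB2, CDC25C and BUB1, with log2 fold changes of -0.32 to -0.27. The count was 2 to 6 over the 24 alternatives, CCNA2 and CCNB1 being called in all 24, CCNB2 in 18, CDC25C in 16 and BUB1 in 7. Among the fits without 1 library, CCNB2 was lost without the second or the third medium or the first or the third 5-OH-TMT library, CDC25C without the second or the third medium or any 1 5-OH-TMT library, and BUB1 without any 1 library other than the second medium and the second knockdown library. CCNA2 and these 4 were named after their values were seen. Among them CDC25C averaged 14.7 FPKM both with TNF-α alone and with 5-OH-TMT and TNF-α. The knockdown had 3 of the 12 called lower and 0 higher against medium, where 11.4% and 12.9% of all tested genes were. Against 5-OH-TMT it had 5 higher and 2 lower, where 7.85% and 7.43% of all tested genes were. With the knockdown against TNF-α 3 of the 12 were called lower and 1 higher, where 8.08% and 9.35% of all tested genes were. The 3 were MCM5 (log2 fold change -0.89), E2F1 (-0.84) and RRM2 (-0.54), genes of DNA replication and the G1/S transition, each called under all 24 alternatives. The 1 was MKI67, the proliferation marker Ki-67, also named after its values were seen, which went from 19.2 to 26.1 FPKM (log2 fold change 0.46 ± 0.13, SE, adjusted p = 0.0318). Its call was lost in 8 of the 24 alternatives, among them the fits without the third TNF-α library or any 1 knockdown library (adjusted p up to 0.115). All knockdown libraries lay above all TNF-α libraries in 5 of the 12 and below them in 3, as in 17.5% and 16.4% of all tested genes. The median of the 12 with the knockdown was 0.08, and 7 of the 12 values were above 0. In bulk RNA, fewer cells in a cycle phase and less RNA per cell cannot be told apart.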

How the data were processed

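The labels describe RNA selected on poly-T beads, and the submitters' processing notes name CASAVA 1.8, HISAT2 2.0.4, the hg38 genome and HTSeq 0.9.1. Whether counting used strand is not given in the sources used here. The authors deposited FPKM per gene and library, and gene positions matched GENCODE 29 for 99.9% of 58735 genes. FPKM times gene length gave whole reads (tolerance 0.05) for 100% of values, and their scaling equalled median-of-ratios size factors. Genes with a mean of at least 0.1 FPKM (18079) were fitted as log2(FPKM + 0.1) in 1 limma 3.58.1 model (R 4.3.3) of the 4 groups, with trended empirical Bayes variance, 8 residual degrees of freedom and Benjamini-Hochberg adjustment over all genes. Fold changes on this scale understate those of low genes, and quoted folds are ratios of mean FPKM. An exact permutation test of 3 libraries against 3 cannot go below 0.1 and was not used for calls. The members, gene lists and tests were chosen with earlier results of these data known. By a fixed rule the text names all members and regulators, up to 4 of the highest and of the lowest called other targets per main comparison with a mean of at least 1 FPKM, called p21 partners, up to 3 cell cycle genes, and the 5 genes most like CDKN1A and MDM2. One gene of the fixed lists is not reported here. The scripts were tested on simulated data. Alternatives were the pseudocount, the filter, scaling, the groups fitted, the variance trend, voom, a replicate block and each library left out.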

Additional observations from a re-analysis of the deposited data

How the results depend on the processing

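Of the 6 counts of called members, each under 12 other settings and 12 fits without 1 library, 128 of 144 stayed within 1.5 times the reported count. With TNF-α against medium the count fell from 2 to 1 when only the 2 groups compared were fitted. With 5-OH-TMT against TNF-α it rose from 0 to 2 with genes under a mean of 1 FPKM left out, and to 1 with a fixed sum, with total reads on genes (chosen after seeing the data), with only 2 groups and with voom. Leaving out 1 library gave 0 to 2, with 1 without the first or second medium library and 2 without the second knockdown library. For the knockdown against medium it rose from 2 to 4 with the stricter filter and to 5 with voom, and was 2 to 4 without 1 library, the 4 without the second medium library. For the knockdown against 5-OH-TMT it fell from 3 to 1 without the variance trend, and was 0 to 4 without 1 library, with 0 without the first or second 5-OH-TMT library or the first knockdown library. Median-of-ratios scaling changed nothing by construction, since the deposited values already carry it. The cause of these shifts was not tested. Of the 714 fold changes recomputed for single genes, 10 changed sign, none of them called. These were SESN1 with 5-OH-TMT, whose values without 1 library ran from -0.16 to 0.26, and FDXR and ZMAT3 with the knockdown, whose values without 1 library ran from -0.0372 to 0.0938 and from -0.0839 to 0.0469 (ZMAT3 was 0.0206 with a fixed sum). The low genes SESN1 and TP53INP1 were not tested under the stricter filter, which removes them. Labels give the groups the same replicate numbers, but same-numbered libraries did not deviate together (18 correlations from -0.37 to 0.15, median 0.02). No pairing by number was thus detected, which cannot show that same-numbered libraries were prepared apart. With the replicate block the counts of called members were 2, 0 and 3 in the 3 main comparisons, 2 and 2 against medium, and 2 for the knockdown against 5-OH-TMT, where MDM2 was lost. TP53INP1 and SESN1, with 30 to 153 and 64 to 146 reads per library, are the members whose counting error is largest.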
